A study of Mus musculus with 3 samples.

Results

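Receptors that bind the Fc part of antibodies, and the adaptor proteins that carry their signal into the cell, were described in mandibular condyles of mice with 2, 1 or no working copies of Dspp, the gene of the extracellular matrix protein dentin sialophosphoprotein. The set holds 8 genes, found by their symbols in a table of 26970 genes. They are Fcgr1, Fcgr2b, Fcgr3 and Fcgr4, which encode the receptors for IgG, Fcer1g and Tyrobp, which encode 2 adaptors, Trem2, which encodes a receptor that signals through the Tyrobp product, and Syk, which encodes the kinase that these adaptors recruit. All 8 averaged 1 FPKM or more and were among the 13026 genes that were compared. FPKM is the number of sequenced fragments divided by gene length and by library size, so it can be set side by side between genes.

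The condyle is the jaw's part of the temporomandibular joint, and its cartilage and the bone under it were kept together. Condyles of 4-month-old mice gave 1 library for each genotype: WT (+/+), Dspp+/- and Dspp-/-. The Dspp-/- mice carry a global knockout on a C57BL/6 background, so Dspp is missing from every tissue, the teeth included, and the Dspp+/- mice came from crossing Dspp-/- with C57BL/6 WT mice. The study's methods give tissue pooled from 3 animals for WT and for Dspp+/-, and the number of animals behind the Dspp-/- library is not given in the sources used here. The labels speak of triplicates, but the table holds 1 value for each gene and genotype.

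With 1 library for each genotype there was no test between genotypes, and no difference below has a replicate check. Each fold is given with a 95% Clopper-Pearson interval from the fragments behind it, and each ratio of 2 genes with a 95% exact interval of the odds ratio. These intervals cover counting error only and say nothing about the spread between mice. Depth was 20241576 fragments in WT and 22253158 or more in the mutant libraries. Mitochondrially encoded genes took 25.0% of all FPKM in WT, but 36.9% and 37.3% in Dspp+/- and Dspp-/-. Xist, which is transcribed from the inactive X chromosome of female cells, was at 0.00551 FPKM in WT, against 28.5 in Dspp+/- and 26.5 in Dspp-/-, so sex and genotype cannot be told apart in these libraries. Of the tissue's own markers, the 10 osteoblast genes summed to 16082 FPKM in WT, compared with 4449 in Dspp+/- and 8890 in Dspp-/-, and the 10 chondrocyte genes to 1238, 162 and 529, with Matn1 listed at 0 in Dspp+/-.

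Fc gamma receptors let macrophages, neutrophils, monocytes and mast cells respond to IgG bound to a target. In the mouse, the products of Fcgr1, Fcgr3 and Fcgr4 are activating receptors. They have no signalling motif of their own and pair with the Fcer1g product, the FcR gamma chain, whose tail holds an immunoreceptor tyrosine-based activation motif (ITAM). The product of Tyrobp, also called DAP12, serves TREM and related receptors in the same way. Kinases of the Src family phosphorylate the ITAM tyrosines, Syk docks on them, and calcium and other signals follow. The Fcgr2b product is the inhibitory counterpart, with an immunoreceptor tyrosine-based inhibition motif (ITIM) in its own tail. In bone, precursors of osteoclasts, the cells that resorb bone, need a signal from the FcR gamma chain or DAP12 next to that of RANKL, and OSCAR and TREM2 are receptors that feed those adaptors.

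The 2 adaptors share the ITAM, which is shown because the whole set of activating receptors signals through these few codons. The coding sequence is that of the reference annotation, GENCODE M21 on GRCm38, and the capitals mark the tyrosine and leucine codons of the motif.
Fcer1g: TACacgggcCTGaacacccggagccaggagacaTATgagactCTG
Tyrobp: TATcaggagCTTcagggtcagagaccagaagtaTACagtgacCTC
In Fcer1g-201 these were codons 65 to 79 of 86, split between exon 4 (chr1:171230067-171230072, minus strand) and exon 5 (chr1:171229889-171229927). In Tyrobp-201 they were codons 92 to 106 of 114, split between exon 4 (chr7:30415670-30415675, plus strand) and exon 5 (chr7:30417344-30417382). In both genes 7 codons lay between the first leucine and the second tyrosine codon. Over the whole coding sequence the adaptors were 64.4% identical in 233 aligned bases, with no identical run longer than 7 bases.

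The inhibitory receptor differs from the others in the codons of its ITIM, shown with the isoleucine, tyrosine and leucine codons in capitals.
Fcgr2b: aatacgATCaccTACtcacttCTCaagcat
These were codons 315 to 324 of 340 of Fcgr2b-201, in exon 8 (chr1:170961065-170961094, minus strand). Outside the tail, the activating Fcgr3 and the inhibitory Fcgr2b are close copies. A 90-base window of exon 3 is shown because Fcgr2b and Fcgr3 are identical there, with the bases of Fcgr4 that differ from Fcgr2b in capitals.
Fcgr2b: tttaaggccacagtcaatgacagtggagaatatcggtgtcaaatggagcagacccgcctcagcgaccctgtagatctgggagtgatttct
Fcgr3: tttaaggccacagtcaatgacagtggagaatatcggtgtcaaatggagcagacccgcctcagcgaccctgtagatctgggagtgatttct
Fcgr4: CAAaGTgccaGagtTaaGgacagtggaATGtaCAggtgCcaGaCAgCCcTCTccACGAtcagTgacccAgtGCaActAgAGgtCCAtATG
The window lies at chr1:170967981-170968070 in Fcgr2b, at chr1:171057692-171057781 in Fcgr3, both on the minus strand, and at chr1:171020060-171020149 on the plus strand in Fcgr4. In it Fcgr4 differed from them at 40 of 90 bases. Over the coding sequence, Fcgr2b and Fcgr3 were 83.5% identical in 776 aligned bases with an identical run of 129 bases, while the other pairs of the 4 receptors were between 59.4% and 64.2% identical with no run over 14 bases. Of all 100-base stretches of the Fcgr3 exons, 2.54% also occurred in Fcgr2b. The identical run of 129 bases is shorter than a read of 150 bases, and whether any reads were counted for the wrong gene was not tested.

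The receptor genes split. Fcgr3, Fcgr4 and Fcgr2b were higher in both mutant libraries than in WT, and Fcgr1 did not differ from WT beyond counting error. The adaptors split too, with Fcer1g higher in both mutant libraries and Tyrobp at nearly the same level in all 3. Syk was higher in both, and Trem2 did not differ from WT beyond counting error in either. All 14 neutrophil marker genes were at least 2-fold higher in both mutant libraries as well, and their part in these levels was not tested. In Dspp+/- the interval of the fold lay above 1 for 5 of the 8 genes and below 1 for none, beside 39.4% of all compared genes with an interval above 1 and 28.4% with one below. In Dspp-/- it again lay above 1 for 5 and below for none, beside 34.1% of all above and 33.6% below. Both comparisons use the same WT library, so the recurrence of these 5 genes is no second piece of evidence. Whether more RNA of a gene came from more cells that carry it or from more RNA in each cell cannot be told apart in such tissue samples.

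Fcgr3 (ENSMUSG00000059498), the low-affinity activating receptor for IgG complexes, was at 5.44 FPKM in WT, next to 15.8 in Dspp+/- and 16.9 in Dspp-/-. Both mutant libraries stood well above WT and close to each other. Relative to WT, Dspp+/- had a fold of 2.91 (2.47 to 3.44) and Dspp-/- one of 3.11 (2.64 to 3.67), from 191, 648 and 653 fragments, and the ratio of Dspp+/- to Dspp-/- was 0.935 (0.838 to 1.04). Fcgr3 is among the genes the study picked from these same libraries, so its direction is not independent of that choice.

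Fcgr4 (ENSMUSG00000059089), an activating receptor of myeloid cells, was at 1.10 FPKM in WT, against 3.47 in Dspp+/- and 2.90 in Dspp-/-. These levels rest on 28, 103 and 81 fragments, the fewest of the 8 genes in WT. The fold was 3.15 (2.06 to 4.98) for Dspp+/- and 2.63 (1.69 to 4.20) for Dspp-/-, wide intervals that overlap those of Fcgr3.

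Fcgr2b (ENSMUSG00000026656), the inhibitory receptor, was at 2.82 FPKM in WT, compared with 5.05 in Dspp+/- and 3.72 in Dspp-/-. It was highest in the heterozygote, with a fold of 1.79 (1.57 to 2.04) against WT, and lay between WT and the heterozygote in Dspp-/-, with a fold of 1.32 (1.14 to 1.52). The ratio of Dspp+/- to Dspp-/- was 1.36 (1.21 to 1.53). Its exons share 4.30% of their 100-base stretches with other genes, most with Cplx2, Gm47409 and Rab3c, and some with Fcgr3. Of their bases, 2.68% lie opposite Gm38204 on the other strand, which counting without strand could add to it. Gm38204 itself was listed at 0 in WT and Dspp+/- and at 0.218 FPKM in Dspp-/-.

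Fcgr1 (ENSMUSG00000015947), the high-affinity receptor that binds single IgG molecules, was at 1.11 FPKM in WT, next to 1.23 in Dspp+/- and 1.04 in Dspp-/-. The 3 levels were within counting error of one another. The fold was 1.11 (0.776 to 1.59) for Dspp+/- and 0.941 (0.645 to 1.37) for Dspp-/-, so a change of up to about these bounds could not be seen at 58 to 75 fragments. It is the sole receptor of the 4 that lies outside the chromosome 1 cluster, on chromosome 3.

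Fcer1g (ENSMUSG00000058715), the adaptor of the activating Fc receptors, was at 18.9 FPKM in WT, against 32.1 in Dspp+/- and 34.3 in Dspp-/-. Both mutant libraries were above WT and did not differ from each other beyond counting error. The fold was 1.70 (1.49 to 1.94) for Dspp+/- and 1.82 (1.59 to 2.08) for Dspp-/-, from 334, 662 and 668 fragments.

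Tyrobp (ENSMUSG00000030579), the DAP12 adaptor, was at 49.0 FPKM in WT, compared with 44.4 in Dspp+/- and 47.6 in Dspp-/-. It was the highest of the 8 genes in every library. The fold was 0.908 (0.815 to 1.01) for Dspp+/- and 0.973 (0.874 to 1.08) for Dspp-/-, from 661 to 707 fragments. At that depth the intervals leave out a change in either direction as large as that of Fcer1g, as far as counting error goes.

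Trem2 (ENSMUSG00000023992), a receptor for lipids and lipoproteins on macrophages and osteoclast precursors, was at 1.08 FPKM in WT, next to 1.34 in Dspp+/- and 0.990 in Dspp-/-. The heterozygote was the highest of the 3. Relative to WT the fold was 1.24 (0.963 to 1.60) for Dspp+/- and 0.918 (0.697 to 1.21) for Dspp-/-, and the ratio of Dspp+/- to Dspp-/-, 1.35 (1.05 to 1.74), lay above 1.

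Syk (ENSMUSG00000021457), the kinase that binds the phosphorylated ITAM, was at 6.19 FPKM in WT, against 13.3 in Dspp+/- and 10.1 in Dspp-/-. With 1173, 2947 and 2112 fragments it is the most precisely measured of the 8 genes. The fold was 2.15 (2.01 to 2.31) for Dspp+/- and 1.64 (1.52 to 1.76) for Dspp-/-. As with Fcgr2b, the heterozygote was highest, and its ratio to Dspp-/- was 1.31 (1.24 to 1.39).

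**Figure D1:**
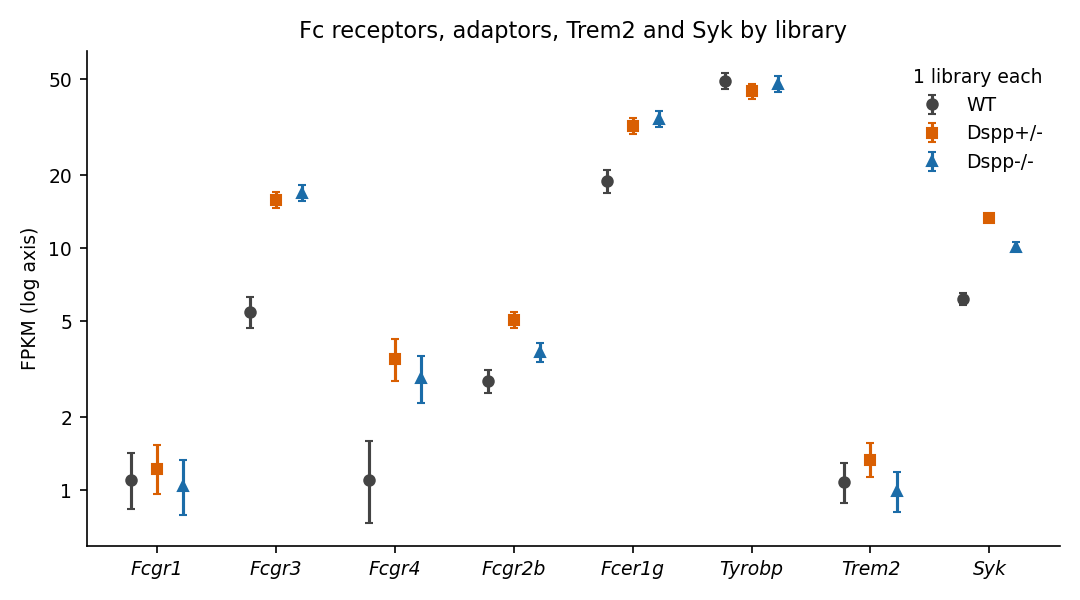
FPKM (log axis) of the 8 genes in the WT, Dspp+/- and Dspp-/- libraries, 1 library each, with bars for the 95% counting interval. Tyrobp lies between 44.4 and 49.0 in all 3 libraries, while Fcer1g goes from 18.9 in WT to 32.1 and 34.3, and Fcgr3 from 5.44 to 15.8 and 16.9.

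The plot of levels also shows how the order of the genes moved. In WT the order was Tyrobp, Fcer1g, Syk, Fcgr3, Fcgr2b, Fcgr1, Fcgr4 and Trem2. There, Syk and Fcgr3 did not differ beyond counting error, and neither did the lowest 3, all at 1.08 to 1.11 FPKM. In both mutant libraries Fcgr3 stood above Syk with intervals apart. Fcgr4 left the lowest group in both but stayed below Fcgr2b. Their intervals overlapped in Dspp-/- (2.90 against 3.72 FPKM) and lay apart in Dspp+/-. Trem2 and Fcgr1 were the lowest 2 in both mutant libraries and did not differ from each other beyond counting error. Among all compared genes, Fcgr3 stood above 49.4% in WT and 80.3% in Dspp+/-, and Fcgr4 above 6.30% and 31.9%, while Tyrobp stood above 94.6% and 94.1%.

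On the log2(FPKM + 1) scale, where a call is a difference of 1 or more, 2 of the 8 genes were called higher in Dspp+/-, Fcgr3 with a difference of 1.38 and Fcgr4 with 1.09. The call of Fcgr4 was lost, at 0.97, when hemoglobin, immunoglobulin and skeletal muscle genes were left out of the library size, and both calls were lost with a pseudocount of 5 in place of 1, at 0.996 and 0.47. Of all compared genes 4.88% were called higher and 2.86% lower there. Syk lay just under the threshold with a difference of 0.995, although its FPKM was more than 2-fold that of WT, because the added 1 draws differences towards 0. In Dspp-/- only Fcgr3 of the 8 was called, with a difference of 1.48, beside 4.05% of all compared genes called higher and 1.37% lower. Fcgr4 had a difference of 0.89 and Fcer1g one of 0.83. The median difference of the 8 genes was 0.70 in Dspp+/- and 0.47 in Dspp-/-, against 0.058 and 0.0070 over all compared genes. Without hemoglobin, immunoglobulin and skeletal muscle genes in the library size, 489 genes were called higher and 592 lower in Dspp+/-, where FPKM as deposited gave 636 and 373, and in Dspp-/- the counts were 433 and 338 in place of 527 and 179. Under that scaling the median of all compared genes moved to -0.099 in Dspp+/- and -0.14 in Dspp-/-.

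**Figure D2:**
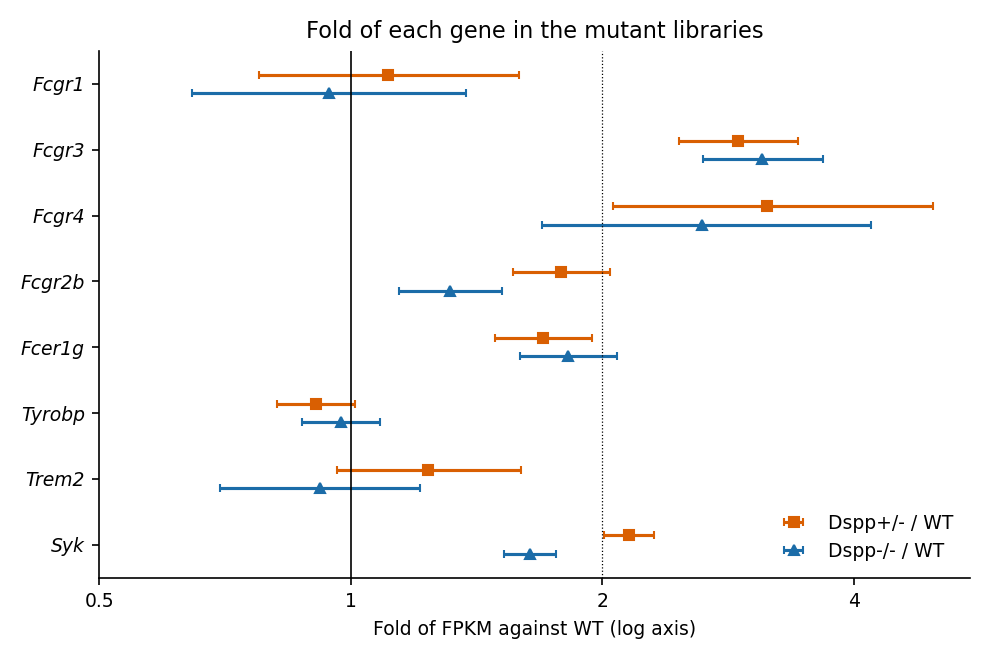
Fold of FPKM against WT (log axis) of the 8 genes in Dspp+/- (squares) and Dspp-/- (triangles), with 95% Clopper-Pearson intervals. The intervals of Fcgr3, Fcgr4, Fcgr2b, Fcer1g and Syk lie above 1 in both, and those of Fcgr1, Tyrobp and Trem2 hold 1.

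The plot of folds shows where the mutant libraries differ. Dspp+/- was above Dspp-/- beyond counting error for Fcgr2b, Syk and Trem2, and for none of the 8 did the reverse hold. Over all compared genes, 34.6% had an interval above 1 in that comparison and 25.5% one below. None of the 8 reached a 2-fold difference between the mutants, which 1.65% of all compared genes did.

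Ratios of 2 genes within a library do not depend on library size. Fcer1g was at 0.386 of the Tyrobp level in WT and at 0.722 and 0.721 of it in the mutant libraries. The ratio of the adaptors was therefore 1.87 (1.57 to 2.23) times that of WT for Dspp+/- and 1.87 (1.57 to 2.22) times for Dspp-/-, so the split between the adaptors does not rest on how the libraries were scaled. Fcgr3 was at 0.288 of Fcer1g in WT and at 0.493 and 0.492 in the mutants, which is 1.71 (1.38 to 2.12) times the WT ratio in each. The receptor was thus further above WT than its adaptor. Syk to Tyrobp was 2.37 (2.09 to 2.70) times the WT ratio in Dspp+/- and 1.68 (1.48 to 1.92) times in Dspp-/-.

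The balance of activating and inhibitory Fc receptors is often put as a ratio. Fcgr3 to Fcgr2b was 1.92 in WT and then 3.13 for Dspp+/- and 4.55 for Dspp-/-, which is 1.63 (1.32 to 2.02) and 2.36 (1.90 to 2.94) times the WT ratio. Fcgr4 to Fcgr2b was 0.390, 0.688 and 0.780, or 1.76 (1.13 to 2.84) and 2.0 (1.25 to 3.26) times. Fcgr1 to Fcgr2b went the other way, from 0.392 in WT to 0.243 and 0.280, or 0.620 (0.423 to 0.913) and 0.715 (0.476 to 1.07) times. These are ratios of RNA levels in whole tissue, where the receptors may sit on different cells.

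**Figure D3:**
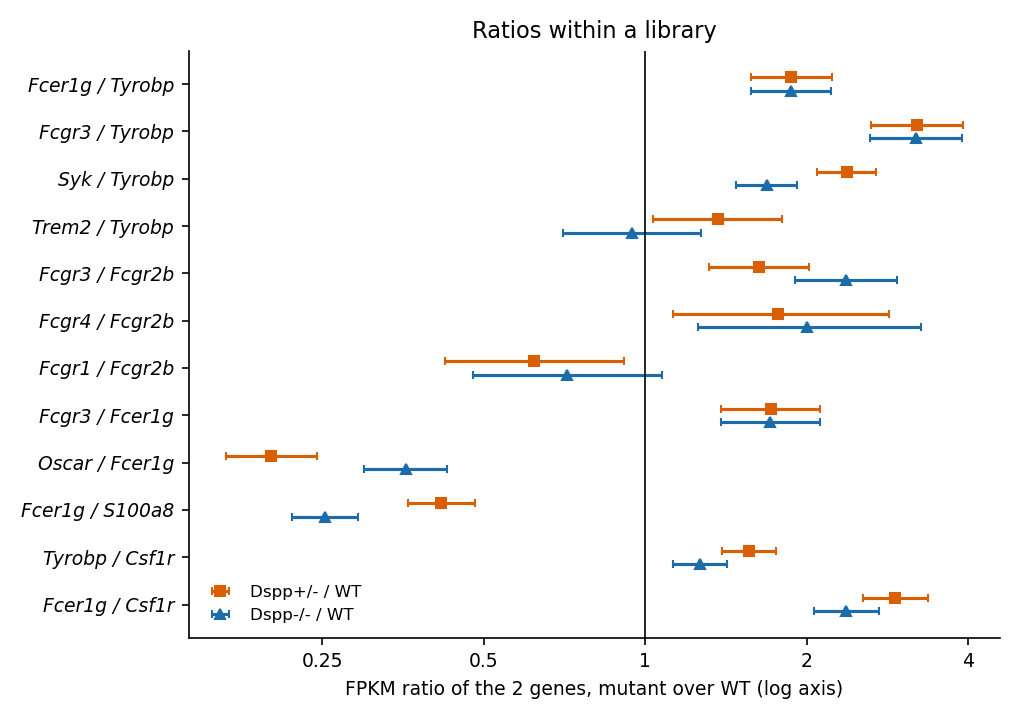
FPKM ratio of 2 genes of a library, divided by the same ratio in WT (log axis), for Dspp+/- (squares) and Dspp-/- (triangles), with 95% exact intervals. Fcer1g to Tyrobp is at 1.87 in both, and Oscar to Fcer1g at 0.201 and 0.358.

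In the positions of the table, whose genome build is not named, Fcgr2b, Fcgr4 and Fcgr3 lie together on chromosome 1 within 106319 bases (170786186 to 170892504), and Fcer1g is farther along, so that the 4 genes span 275749 bases. Fcrla, the gene of an Fc receptor-like protein of B cells, lies next to Fcgr2b and was at 3.00 FPKM in WT, compared with 8.11 in Dspp+/- and 6.70 in Dspp-/-, a fold of 2.70 (2.16 to 3.39) and 2.23 (1.77 to 2.82). Fcrlb, the related gene beyond it, was lower, at 0.770, 0.165 and 0.350 FPKM from 20, 5 and 10 fragments, with a fold of 0.214 (0.0628 to 0.588) and 0.455 (0.190 to 1.02). Sdhc, a gene of the mitochondrial respiratory chain between Fcgr3 and Fcer1g, was at 55.4, 74.6 and 54.9 FPKM. Its fold was 1.35 (1.29 to 1.41) for Dspp+/- and 0.992 (0.948 to 1.04) for Dspp-/-, so its interval lay above 1 in Dspp+/- alone.

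Trem2 lies among its relatives on chromosome 17 (48653429 to 48661175 in the table), and it was the exception there. Trem1, which encodes a receptor that amplifies inflammation in neutrophils and monocytes and also pairs with DAP12, was at 0.198 FPKM in WT, next to 2.16 in Dspp+/- and 2.55 in Dspp-/-. From 12, 153 and 170 fragments its fold was 10.9 (6.08 to 21.6) and 12.9 (7.19 to 25.4). Trem3, another partner of DAP12, was at 0.994, 8.05 and 5.61 FPKM, a fold of 8.10 (5.10 to 13.6) and 5.64 (3.50 to 9.55). Treml1, a gene of platelets, was at 0.529, 4.35 and 2.21 FPKM, and Treml2 at 0.653, 4.04 and 3.42. Treml4, with a mean under 1 FPKM, was at 0.247, 1.31 and 0.945. All 5 relatives had intervals above 1 in both mutant libraries, whereas those of Trem2 held 1.

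**Figure D4:**
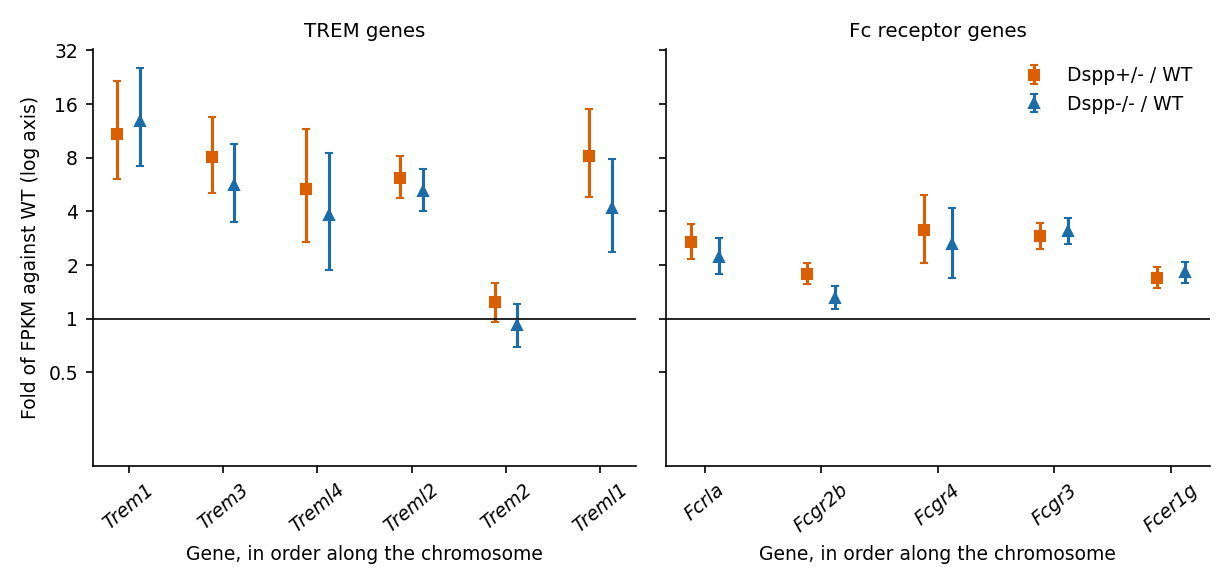
Fold of FPKM against WT (log axis) with 95% Clopper-Pearson intervals, for TREM genes of chromosome 17 and for Fcrla, Fcgr2b, Fcgr4, Fcgr3 and Fcer1g of chromosome 1. Genes are in their order along the chromosome. Trem2 is at 1.24 and 0.918 between Treml2 and Treml1, whose folds are above 4, and the plotted chromosome 1 genes lie between 1.32 and 3.15. Fcrlb, which lies beyond Fcrla, is not plotted and went the other way, with folds of 0.214 and 0.455.

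Receptors taken as partners of the Fcer1g or Tyrobp products were counted in a list of 24 genes in the table, of which 13 were compared. Pairing was not checked for each of them, and Treml2, among those called higher in both mutant libraries, may use neither adaptor. In Dspp+/- 9 of these 13 were called higher and 2 lower, and in Dspp-/- 8 and 0, with a median difference of 1.40 in each. The 2 lower ones in Dspp+/- were Oscar and Siglec15, both known from osteoclasts. Oscar, whose product binds collagen and signals through the FcR gamma chain, was at 18.5 FPKM in WT, against 6.33 in Dspp+/- and 12.1 in Dspp-/-, a fold of 0.341 (0.296 to 0.393) and 0.651 (0.579 to 0.731). Oscar to Fcer1g went from 0.982 in WT to 0.197 and 0.351. Siglec15, which signals through DAP12 in osteoclasts, was at 17.0, 6.78 and 12.1 FPKM, a fold of 0.398 (0.333 to 0.476) in Dspp+/-. So Oscar and Siglec15, and Clec4n as well, were lower while Fcer1g was higher and Tyrobp stayed near its WT level.

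Of 12 other Fc receptor genes, 5 were compared, and 2 were called higher in Dspp+/- and 1 in Dspp-/-, with none lower. Fcgrt, the neonatal Fc receptor that recycles IgG, was at 68.8 FPKM in WT, compared with 44.6 in Dspp+/- and 47.7 in Dspp-/-. Fcmr, the IgM receptor of lymphocytes, was at 1.22, 5.61 and 4.19. The alpha and beta chains of the IgE receptor, which also uses the FcR gamma chain, had means under 1 FPKM: Fcer1a was at 0.149, 1.87 and 0.540, and Ms4a2 at 0.105, 1.16 and 1.12. In WT these last values rest on 3 and 6 fragments. Fcamr was listed at 0 in WT and Pigr in both mutant libraries, but these rest on few fragments: 0, 6 and 1 for Fcamr, and 2, 0 and 0 for Pigr.

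Of the other adaptors listed, Cd79a and Cd79b, the signalling chains of the B cell receptor, were called higher in both mutant libraries. Cd79a was at 5.49 FPKM in WT, next to 21.6 in Dspp+/- and 12.9 in Dspp-/-, and Cd79b at 5.90, 21.8 and 15.4. Hcst, the DAP10 adaptor next to Tyrobp on chromosome 7, 127 bases away, was at 1.51, 3.23 and 2.43. An ITAM was not checked for in each listed adaptor, and the Hcst product may not carry one. For the heterozygote the Hcst fold was 2.14 (1.29 to 3.69), whereas the Dspp-/- interval, 0.933 to 2.86 around 1.61, held 1. The T cell chains Cd3d, Cd3e, Cd3g and Cd247 were at 0.311 FPKM or less in every library. Of 3 receptors with a single ITAM-like tyrosine, only Clec7a, the receptor for fungal glucans, had a mean over 1 FPKM, at 1.46, 9.13 and 7.60.

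Upstream of Syk, 9 of 12 genes of Src family and Tec kinases were compared, with 5 called higher and 1 lower in Dspp+/- and 3 and 0 in Dspp-/-. The myeloid kinase Lyn was at 7.85 FPKM in WT, against 17.1 in Dspp+/- and 16.2 in Dspp-/-. Fgr, another kinase of myeloid cells, was at 1.37, 5.35 and 6.10. The broadly expressed Fyn went the other way, at 21.4, 12.9 and 14.6, and so did Src, which osteoclasts need for resorption, at 12.1, 5.14 and 5.91. Src is another gene that the study picked from these libraries, as is Pik3cg below.

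Downstream of Syk, all 22 listed genes were compared, with 6 called higher in Dspp+/- and 2 in Dspp-/- and none lower, and median differences of 0.45 and 0.46. Rac2, a GTPase of blood cells, was at 17.5, 38.0 and 35.2 FPKM, and Pik3cg, the gamma form of PI 3-kinase, at 1.33, 4.81 and 4.90. Nfatc1, the transcription factor at the end of the osteoclast branch, was at 24.5, 17.5 and 21.9, the calcineurin gene Ppp3ca at 24.3, 22.5 and 24.7, and Plcg1 at 14.2, 9.23 and 9.48. The list of 22 inhibitory receptors and phosphatases, the group that counters ITAM signals together with Fcgr2b, had 12 called higher and 0 lower in Dspp+/- and 10 and 1 in Dspp-/-, with medians of 1.04 and 0.86. In it, Lilrb4a, which shares 35.2% of its 100-base stretches with other genes and so is uncertain, was at 0.974, 4.97 and 4.81 FPKM. Dok1, an adaptor that damps kinase signals, was at 16.3, 8.14 and 7.11, Ptpn11 at 32.8, 35.3 and 30.4, Sirpa at 20.8, 23.0 and 21.1, and Pecam1 at 31.2, 38.6 and 37.0. Among 8 compared genes of ligands, 3 were called higher in each mutant library and none lower. The IgG heavy chain Ighg2b was at 3.32 FPKM in WT, compared with 53.6 in Dspp+/- and 16.7 in Dspp-/-, Ighm at 193, 292 and 332, and the Trem2 ligands Apoe at 144, 105 and 73.0 and Clu at 36.0, 66.5 and 28.4.

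**Figure D5:**
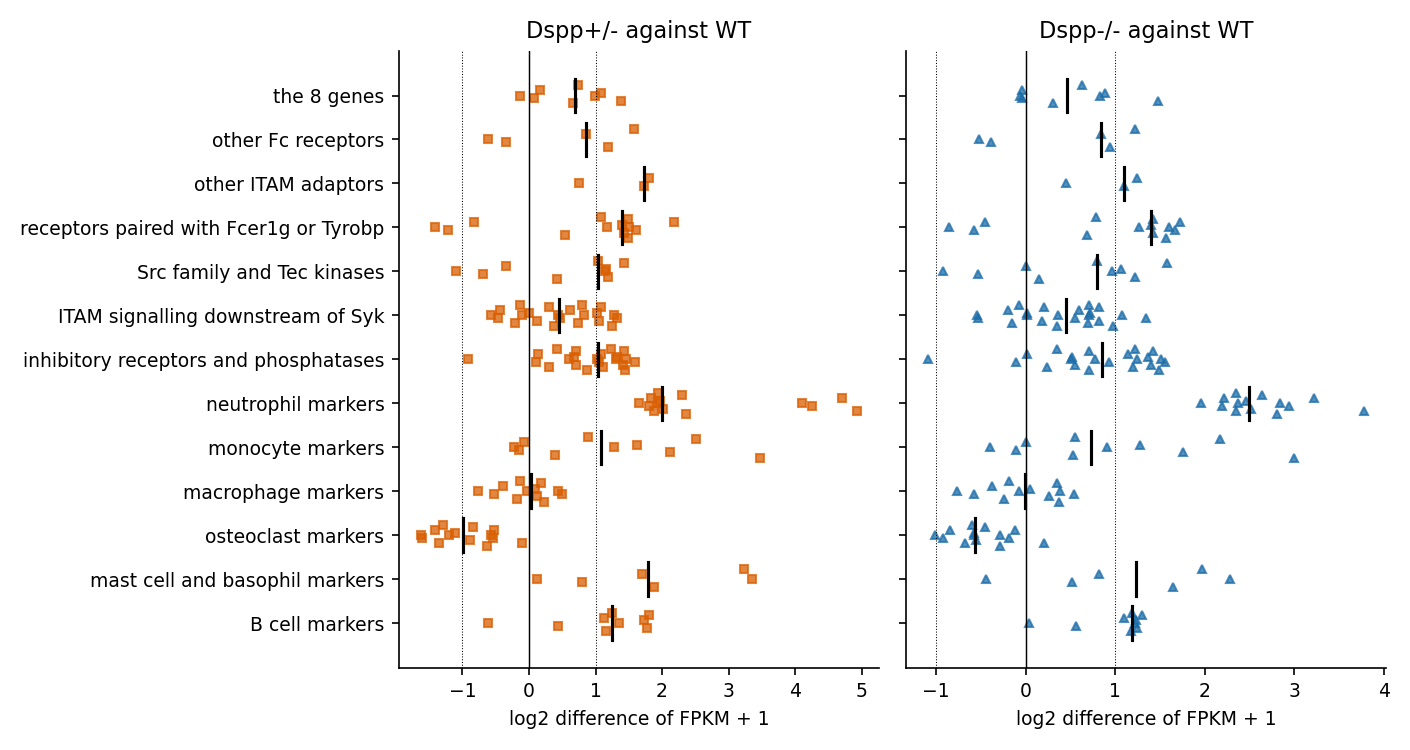
Difference to WT in log2(FPKM + 1) of each compared gene of the 8-gene set and of the other lists named on the axis, in Dspp+/- (left) and Dspp-/- (right). Bars mark medians and dotted lines the threshold of 1. Of the lists plotted, neutrophil markers have the highest medians, 2.0 and 2.49, and osteoclast markers the lowest, -1.0 and -0.57.

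Cells that carry these receptors were followed by their markers, as the plot of gene lists shows. The 14 neutrophil markers had a summed level that went from 652 FPKM in the WT library to 2938 and 3897 in those of Dspp+/- and Dspp-/-. Of 10 compared monocyte markers, 5 and 4 were called higher, and the summed level was 573, 583 and 508 FPKM, most of it from Fn1. None of the 12 compared macrophage markers was called in either direction, with medians of 0.030 and -0.011 and a summed level of 248, 210 and 204 FPKM. All 14 osteoclast markers were lower in Dspp+/- and 13 of 14 in Dspp-/-, 7 and 1 of them called, and their sum went from 2404 to 902 and 1435 FPKM. Oscar is in this list as well as in that of the receptors.

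Of 6 compared mast cell and basophil markers, 4 and 3 were called higher, with a summed level of 8.05, 40.9 and 21.4 FPKM. Mcpt8, a defining protease of basophils, was listed at 0 in WT and had 197 and 86 fragments in Dspp+/- and Dspp-/-. Tpsab1, a tryptase of mast cells, was listed at 0 in Dspp+/-, but its 1, 0 and 2 fragments in WT, Dspp+/- and Dspp-/- are too few to compare. For B cells 7 of 9 markers were called higher in each mutant library and the sum was 26.7, 80.5 and 66.4 FPKM, with Cd79a and Cd79b shared with the adaptor list. A single NK cell marker, Nkg7, was compared and called higher. The list summed to 1.92, 16.9 and 8.13 FPKM, of which Nkg7 alone gave 0.432, 13.1 and 5.46, so the rise is mostly that of 1 gene. The 8 endothelial markers had no call and summed to 159, 177 and 169. The parts of these cell types in the levels of Fcgr3, Fcgr4, Fcgr2b, Fcer1g and Syk were not tested.

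Set against single markers within a library, Fcer1g did not keep pace with the neutrophil gene S100a8, its ratio being 0.417 (0.361 to 0.481) times that of WT for Dspp+/- and 0.253 (0.219 to 0.292) times for Dspp-/-. Fcgr3 to S100a8 was 0.713 (0.601 to 0.849) and 0.432 (0.365 to 0.514) times. Against Csf1r, the receptor that macrophages and osteoclasts share, both adaptors were above the WT ratio. Tyrobp to Csf1r was 1.56 (1.39 to 1.76) and 1.27 (1.13 to 1.42) times that of WT, and Fcer1g to Csf1r 2.92 (2.54 to 3.37) and 2.37 (2.06 to 2.73) times. Csf1r itself was at 43.2, 25.1 and 33.2 FPKM. Trem2 to Ctsk, the collagenase of osteoclasts, was 3.83 (2.97 to 4.95) times the WT ratio in Dspp+/- and 1.65 (1.25 to 2.17) times in Dspp-/-, since Ctsk went from 863 to 279 and 481 FPKM while Trem2 stayed within counting error of WT.

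The adaptors also differed in how many genes shared their pattern, taken as the distance between genes in the pair of log2 differences to WT over 7132 genes that averaged 5 FPKM or more. For Fcer1g, 19 genes lay within 0.1, and the nearest were Stk10 at a distance of 0.0281, Prkaa2 at 0.0300, Gm6969, Asb5 and Smc4. For Tyrobp, 266 genes lay within 0.1, and the nearest were Vps26c at 0.00166, Rgs10 at 0.00217, 2510002D24Rik, Nus1 and Tpst1. Tyrobp, with differences of -0.137 and -0.039, lay near the medians of all compared genes, 0.058 and 0.0070, so many neighbours go with its position. Fcer1g lay above 91.8% and 94.6% of compared genes. A distance of 0.1 is also narrower than the counting intervals, such as 0.551 to 0.920 for Fcer1g in Dspp+/-, so the nearest genes are not resolved. With 3 libraries such likeness rests on 2 differences that share WT.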

How the data were processed

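The authors deposited 1 table with a value for each gene in each of 3 libraries of poly(A)-selected RNA, sequenced as pairs of 150 bases. The submitters' processing notes name FastQC 0.11.5, HISAT2 2.1.0, StringTie 1.3.3b and DESeq 1.28.0, and a human build, although the gene identifiers are of mouse. The unit is not given in the sources used here. The deposited values were read as FPKM, because multiplied by merged exon length (GENCODE M21) they were whole multiples of 1 constant in each library. This held for 26156 of 26652 genes with a length. The tolerance was 0.02 fragments, or a small fixed share of the fragments where that was larger, so it is loose for the highest genes. That constant gave the depth (WT 20241576, Dspp+/- 23613621 and Dspp-/- 22253158 fragments) and the fragments behind each value. Recovery was checked on simulated data. Only 589 genes have the start and end of GENCODE M21, so positions are those of the table except for sequences, which are from GRCm38.

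Genes that averaged 1 FPKM or more were compared as differences of log2(FPKM + 1), and called at 2-fold. This scale understates the change of low genes. Members are all 8 genes of the set. From each of 18 other lists up to 3 genes with the highest mean were named, with the largest rise and fall in Dspp+/-, and genes within 100 kilobases of a member. The members and lists were chosen with earlier results of these data known. The IgE receptor chains, the T cell chains, Clec4n, Fcamr, Pigr, Xist, Matn1 and Tpsab1 fall outside that rule and were named after their values were seen. The lists also held Pira6, Ighe, Apcs and Marco, which like Dspp were not analysed here. A gene that the rule would name is not reported here. Alternatives were other pseudocounts, filters, scalings and thresholds. Intervals came from scipy 1.17.1 under Python 3.11.15, alignments from Biopython 1.88, tables from pandas 2.3.3 and numpy 2.4.6, and plots from matplotlib 3.10.9.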

Additional observations from a re-analysis of the deposited data

How the results depend on the processing

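No paired analysis was possible because each genotype has 1 library, and for the same reason no replicate could be left out. The 2 genes called in Dspp+/- became 0 with a pseudocount of 5, 1 at a mean of 5 FPKM or more, 1 without hemoglobin, immunoglobulin and skeletal muscle genes in the library size, 5 at 1.5-fold and 0 at 4-fold. They became 3, with Syk added, under a pseudocount of 0.1 and without mitochondrially encoded genes in the library size. Over all compared genes, 185 were called higher and 156 lower in Dspp+/- with a pseudocount of 5, and 281 and 272 at a mean of 5 FPKM or more. With a pseudocount of 0.1 these counts were 971 and 605, and without mitochondrially encoded genes 656 and 344. The 1 gene called in Dspp-/- became 2 with a pseudocount of 0.1, 4 at 1.5-fold and 0 at 4-fold. With the pseudocount of 0.1, 836 of all compared genes were called higher in Dspp-/- and 363 lower. Of all 13026 genes, 1501 were higher and 1166 lower at 1.5-fold in Dspp+/- and 1152 and 1070 in Dspp-/-, and at 4-fold 124 and 24, and 103 and 6. The median difference of the 8 genes, 0.70 in Dspp+/-, became 0.42 with a pseudocount of 5, 0.86 at a mean of 5 FPKM or more and 0.53 without hemoglobin, immunoglobulin and skeletal muscle genes. In Dspp-/-, 0.47 became 0.26 with a pseudocount of 5 and 0.73 at a mean of 5 FPKM or more. The stricter mean leaves fewer of the 8 genes, and a larger pseudocount draws differences to 0 by construction. No call between the mutants appeared under any of these settings. Of 144 single-gene values under another pseudocount or scaling, 125 moved by less than their counting interval and 19 by more. Across those settings, Fcgr4 ranged widest, from 0.47 to 1.57 in Dspp+/- and from 0.37 to 1.32 in Dspp-/-. Fcgr3 ranged from 0.996 to 1.52 and from 1.07 to 1.62, Fcgr2b from 0.36 to 0.82 and from 0.16 to 0.38, Syk from 0.71 to 1.09 and from 0.44 to 0.70, and Fcer1g from 0.55 to 0.76 and from 0.67 to 0.91. The sign of Fcgr1 in Dspp+/- (-0.024 to 0.14) and of Tyrobp in Dspp-/- (-0.21 to 0.039) depended on the scaling. Depth limits Fcgr4, Fcgr1 and Trem2 most, with under 160 fragments in each library.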
